A study of Homo sapiens with 3 samples.

Results

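Hepatocyte transcription factors are the DNA-binding proteins that keep a liver cell a liver cell, and 8 of them were followed here on gene expression arrays of HepG2 cells exposed to etoposide. The 8 genes are HNF4A, FOXA1, FOXA2, FOXA3, CEBPA, CEBPB, ONECUT1 and PROX1. They were taken by gene name from the array annotation, control spots left out and all probes kept, and each of the 8 had 1 probe among the 34127 probes and 27274 gene names of the array. HepG2 is a human hepatocarcinoma line, grown here in RPMI 1640 medium with 10% fetal bovine serum. Etoposide is a topoisomerase II poison that leaves DNA double-strand breaks. A control culture, which the labels call untreated (0 μM), was compared with cultures given 10 μM or 100 μM etoposide, all for 30 h. The paper gives its array fold changes over DMSO, so the control there is named as a solvent control. Each condition was read on 1 array, and the 3 arrays lay on 1 slide, so no value below has a replicate culture and no test between conditions was possible. Both dose comparisons against the control use the same control array.

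HNF4A is a nuclear receptor that occupies a large share of active liver genes, and the FOXA proteins are pioneer factors that open closed chromatin at liver enhancers. C/EBP alpha and C/EBP beta are basic leucine zipper factors, the former tied to quiescence and metabolism and the latter to the acute phase response and regeneration. ONECUT1, also called HNF6, and PROX1 act in liver development and tune the others, and the factors bind each other's promoters, so that they are usually described as a cross-regulating network.

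The cell type label was checked first. All 15 hepatocyte marker genes on the list, among them ALB, AFP and APOA2, were well above background on all 3 arrays. Markers of other cell types were read as well, and 3 of 10 biliary or progenitor, 7 of 13 mesenchymal, 2 of 7 endothelial and 2 of 7 blood cell markers were not well above background on any array, VIM, COL1A1, KDR and HBB included. The dose labels were checked on targets of p53, the factor activated by DNA breaks. Of 10 such genes, 9 were at least 2-fold higher at 10 μM than in the control and 8 at 100 μM. BTG2, CDKN1A, MDM2, TP53I3, PHLDA3 and FDXR led at 10 μM, ZMAT3 joined the leading 6 at 100 μM, with CDKN1A at log2 fold changes of 2.99 and 2.82 and MDM2 at 2.81 and 1.67 for 10 and 100 μM over the control.

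Signals are the scanner software's processed intensities. Each array was scaled by its own 75th percentile over probes, which was 514, 536.4 and 432.3 in the control, 10 μM and 100 μM arrays, and signals are given below on the control array's scale. The error beside a log2 fold change is a spot error, from the SD of log2 signal over repeated spots of 1 probe on 1 array, and it covers neither the culture nor the RNA preparation. A difference is called beyond the spot spread where it exceeds 2 such errors. For the bright probes of FOXA1, FOXA2, CEBPA and CEBPB the software's own error exceeds the spot error, at 10.0% of the signal on every array. As a percentage it was larger for dim probes, at up to 21.2% for HNF4A and 16.1% for ONECUT1. A difference beyond the spot spread need not exceed the software's error. In bulk RNA of this kind, fewer cells of a kind and less RNA per cell cannot be told apart.

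The probes themselves show what was read for each factor. All are 60 bases long. Those of HNF4A, FOXA3, ONECUT1 and PROX1 lie in coding sequence and are shown because HNF4A and ONECUT1 carry the widest changes below, with FOXA3 and PROX1 as the other coding probes. The probes of FOXA1, FOXA2, CEBPA and CEBPB lie in 3′ untranslated sequence and are given by position only. Coordinates are those of the array annotation, build hg18.
HNF4A: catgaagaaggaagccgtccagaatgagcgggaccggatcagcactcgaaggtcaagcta
FOXA3: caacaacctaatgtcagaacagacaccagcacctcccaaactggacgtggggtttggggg
ONECUT1: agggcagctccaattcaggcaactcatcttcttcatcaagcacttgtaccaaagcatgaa
PROX1: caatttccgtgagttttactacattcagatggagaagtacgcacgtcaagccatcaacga
The HNF4A probe (annotated to NM_001030004 and 3 other HNF4A transcripts) maps in 2 exonic pieces between bases 42469516 and 42475793 of chromosome 20 on the plus strand, a span of 6278 bases, so it reads spliced RNA. The annotation lists at most 4 transcripts for any probe, and whether the HNF4A probe reads further isoforms is not settled by it. The FOXA3 probe (NM_004497) lies at 51068021 to 51068080 of chromosome 19, the ONECUT1 probe (NM_004498) at 50837043 to 50837102 of chromosome 15 on the minus strand, where it reaches the stop codon, and the PROX1 probe (NM_002763) at 212251528 to 212251587 of chromosome 1. The remaining probes lie at 37129297 to 37129356 of chromosome 14 for FOXA1 (NM_004496), 22510164 to 22510223 of chromosome 20 for FOXA2 (NM_021784), 38483193 to 38483252 of chromosome 19 for CEBPA (NM_004364) and 48242396 to 48242455 of chromosome 20 for CEBPB (NM_005194). Chromosome 20 thus carries 3 of the 8 genes and chromosome 19 carries 2.

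All 8 factors were well above background on all 3 arrays, and most changed little. At 10 μM, 0 of 8 reached a 2-fold difference from the control, against 4.99% of the 16664 genes measured in that comparison. At 100 μM, 1 of 8 did, ONECUT1, against 10.5% of 16779 genes. Between the doses, HNF4A and ONECUT1 were at least 2-fold higher at 100 μM than at 10 μM, 2 of 8 against 7.63% of 16688 genes. With 8 genes, nothing particular to the factors is read from these counts. The median log2 fold change of the 8 was 0.02 at 10 μM, 0.23 at 100 μM and 0.30 between the doses, beside -0.04, 0.10 and 0.11 over all genes. The sign of small changes depends on the scaling: without it the median of all genes was 0.02, -0.15 and -0.21, and the share of genes higher among those past 2-fold went from 67.8% to 73.3% at 10 μM, from 64.9% to 37.2% at 100 μM and from 52.1% to 22.3% between the doses.

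**Figure D1:**
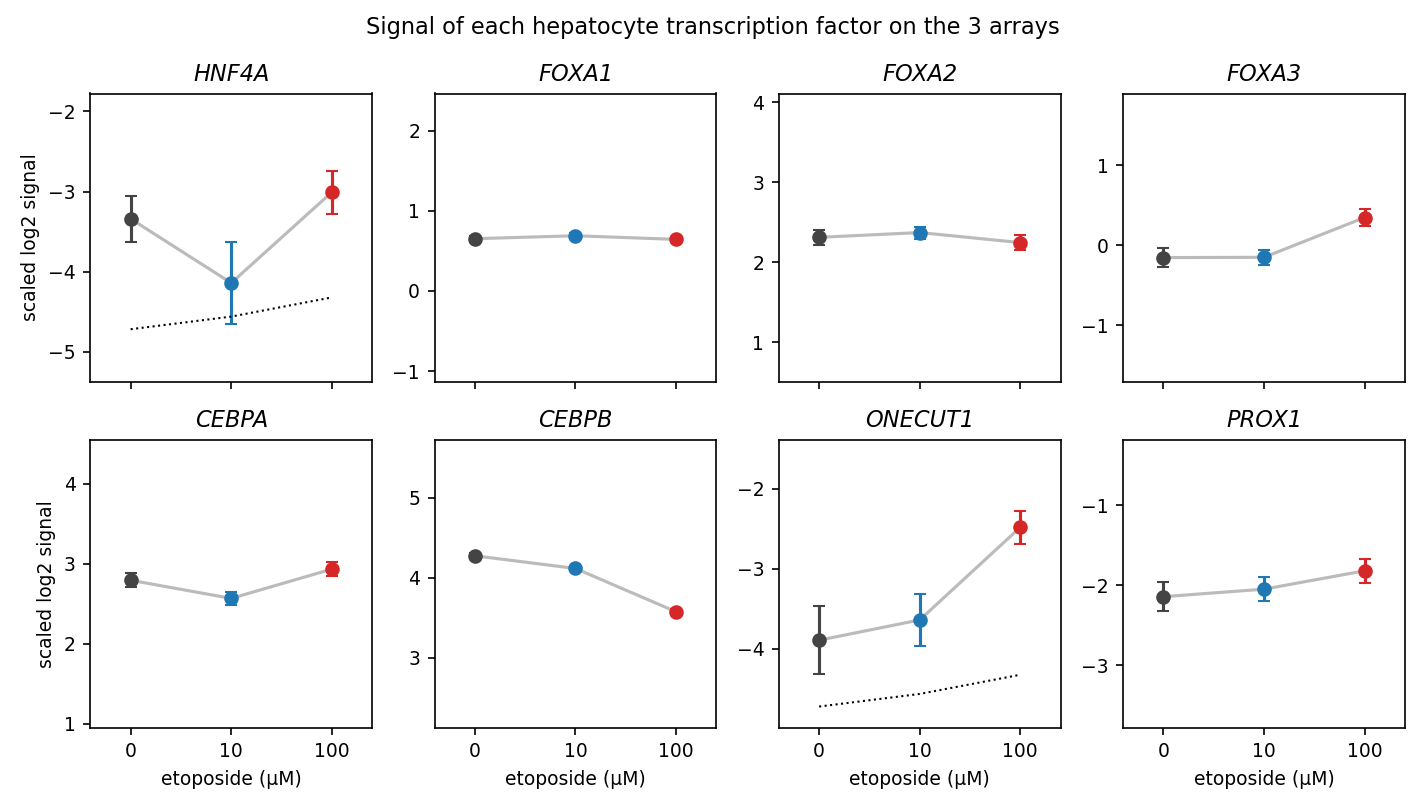
Scaled log2 signal (log2 of the processed signal minus the array's 75th percentile, y axis) of each factor at 0, 10 and 100 μM etoposide (x axis), 1 array per dose, with bars of 2 spot errors. Every panel spans 3.6 log2 units, and the dotted line is the lowest signal that was well above background. HNF4A and ONECUT1 sit near that line, ONECUT1 is highest at 100 μM, CEBPB is lowest at 100 μM, and FOXA1 and FOXA2 are nearly flat under this scaling.

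HNF4A, the nuclear receptor at the centre of the network, was lowest at the lower dose. Its scaled signal was 50.7 in the control, 29.1 at 10 μM and 63.9 at 100 μM. The log2 fold change was -0.80 ± 0.29 at 10 μM and 0.33 ± 0.20 at 100 μM over the control, and 1.13 ± 0.29 at 100 μM over 10 μM, a 2.2-fold difference (2.195). The order was thus 10 μM, control, 100 μM, of which the control and 100 μM did not differ beyond the spot spread. The signal is dim: at 10 μM it was 1.34 times the lowest signal that the array's software set well above background, and the software's own error for the spot was 21.2%, 14.1% in the control and 14.7% at 100 μM. Normexp in place of the software's background subtraction was run with an offset of 50 added to every signal. With it the 10 μM value shrank from -0.80 to -0.28. The difference between the doses shrank from 1.13 to 0.55, with both directions kept. An offset of about the size of this signal shrinks log2 fold changes by itself. The shrinkage therefore does not test the background subtraction. Without scaling the difference between the doses was 0.82.

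The 3 FOXA genes, whose proteins share the winged helix DNA-binding domain, differed from each other at 100 μM. Under the reported scaling FOXA1 and FOXA2 changed little. FOXA1, printed in 10 spots, had a scaled signal of 808 in the control, 829 at 10 μM and 803 at 100 μM, with log2 fold changes over the control of 0.04 ± 0.02 and -0.01 ± 0.02. The 10 spots spread from 0.58 to 0.79 in scaled log2 signal in the control, from 0.63 to 0.78 at 10 μM and from 0.57 to 0.75 at 100 μM, so the 3 sets overlapped after scaling. Before scaling the 100 μM spots (641.3 to 724.9) lay below those of the control (769.8 to 888.9) and of 10 μM (831.7 to 921.2). FOXA2 had scaled signals of 2550, 2658 and 2437 and log2 fold changes of 0.06 ± 0.06 and -0.07 ± 0.06, neither beyond the spot spread. Over the 7 scalings FOXA2 at 100 μM kept a negative sign, at -0.36 to -0.001 over the control and -0.44 to -0.05 over 10 μM. Their 10 and 100 μM arrays differed by -0.05 ± 0.02 for FOXA1 and -0.13 ± 0.06 for FOXA2, just past 2 errors.

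FOXA3, a close relative of both that is active in adult liver, was 462 in the control, 463 at 10 μM and 654 at 100 μM. Control and 10 μM were indistinguishable (log2 fold change 0.00 ± 0.07), and 100 μM stood above both by 0.50 ± 0.08 and 0.50 ± 0.07, a 1.41-fold difference. The change of FOXA3 at 100 μM exceeded that of FOXA1 by 0.51 ± 0.08 and that of FOXA2 by 0.57 ± 0.10 on the log2 scale. A single scaling factor per array drops out of such a difference between genes. FOXA3 itself stayed higher at 100 μM under all 7 scalings tried, at 0.21 to 0.57 over the control, while FOXA1 at 100 μM over the control ranged from -0.30 to 0.06 and so had no settled sign.

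The C/EBP genes parted at the high dose. CEBPB, the inducible acute phase factor, was lower at 100 μM. It too was printed in 10 spots and had a scaled signal of 9947 in the control, 8911 at 10 μM and 6127 at 100 μM. The log2 fold change was -0.16 ± 0.02 at 10 μM and -0.70 ± 0.02 at 100 μM over the control, the latter 1.62-fold lower, and -0.54 ± 0.02 between the doses. The spots lay between 4.20 and 4.37 in scaled log2 signal in the control, 4.04 and 4.20 at 10 μM, and 3.50 and 3.67 at 100 μM, so that the 100 μM spots fell clear of the others and the control and 10 μM spots met at their edges. It was lower at 100 μM than in the control under all 7 scalings, by -0.99 to -0.63, without reaching 2-fold in any.

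CEBPA, which drives hepatocyte metabolic genes, moved less and in both directions. Its scaled signal was 3560 in the control, 3043 at 10 μM and 3921 at 100 μM. The log2 fold change was -0.23 ± 0.06 at 10 μM and 0.14 ± 0.06 at 100 μM over the control, with 0.37 ± 0.06 between the doses, each beyond the spot spread. The software's own error for this spot was larger, at 10.0% on each array. The 10 μM value was lower under all 7 scalings, and the 100 μM value over the control was higher under 4 and lower under 3. At 100 μM the change of CEBPA exceeded that of CEBPB by 0.84 ± 0.07.

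Other C/EBP family genes went in both directions. CEBPG, which dimerises with the other C/EBPs, had log2 fold changes of -0.58 and -1.01 at 10 and 100 μM over the control, and DDIT3, the stress-inducible C/EBP homologous protein that forms inactive dimers with C/EBPs, had -0.98 and -1.52. CEBPD, another acute phase factor, had -0.30 and -0.15. CEBPZ, a CCAAT-box binding protein that shares the name but not the leucine zipper, had -0.10 and -0.47. CEBPE, a myeloid factor, was not well above background in the control and exceeded its bound there by at least 10.9-fold with 10 μM and by at least 5.43-fold with 100 μM. Signs of all these values were kept under the 7 scalings, except that no dose order between 10 and 100 μM could be given for CEBPD. HNF4G and PROX2, the relatives of HNF4A and PROX1, were not well above background on any array.

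ONECUT1, a cut homeodomain activator of liver genes, was the 1 factor past 2-fold against the control. Its scaled signal was 34.6 in the control, 41.3 at 10 μM and 92.1 at 100 μM. The 10 μM array did not differ from the control beyond the spot spread (log2 fold change 0.25 ± 0.27), whereas 100 μM was higher than the control by 1.41 ± 0.24, a 2.66-fold difference, and higher than 10 μM by 1.16 ± 0.19. Among all genes measured, 97.3% had a lower value at 100 μM over the control. The probe was dim, at 1.78, 1.9 and 3.58 times the lowest signal well above background, and the software's error was 16.1%, 15.1% and 11.7% in the order of dose. ONECUT1 was past 2-fold at 100 μM over the control under all 7 scalings, at 1.12 to 1.48 (log2). With normexp it fell short of 2-fold, at 0.90. The normexp offset of 50 exceeds the control signal of 34.6 and by itself shrinks the fold. Falling short there does not test the background subtraction. The paralogs of ONECUT1 did not reach 2-fold. ONECUT2 had log2 fold changes of 0.24 ± 0.09 and 0.33 ± 0.09. ONECUT3, close to background in every array, had -0.07 ± 0.37 and 0.73 ± 0.31.

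PROX1, a homeodomain corepressor of HNF4A and NR5A2, had scaled signals of 116 in the control, 124 at 10 μM and 145 at 100 μM. The log2 fold change was 0.09 ± 0.12 at 10 μM, within the spot spread, and 0.32 ± 0.12 at 100 μM, beyond it. The 10 and 100 μM arrays differed by 0.23 ± 0.11. PROX1 was higher at 100 μM than in the control under all 7 scalings, down to 0.03, and its difference between the doses changed sign in 2 of them.

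Set side by side, the factors did not move as a block. At 100 μM over the control the log2 fold changes ran from -0.70 for CEBPB to 1.41 for ONECUT1, and the difference between these was 2.11 ± 0.24. HNF4A and ONECUT1 differed by 1.06 ± 0.40 in their change at 10 μM and by 1.08 ± 0.31 at 100 μM over the control, and shared their change from 10 to 100 μM (difference 0.02 ± 0.35). In direction, 5 of 8 were higher and 3 lower in each of the 3 comparisons, with 4 to 6 higher under the other scalings. Under the reported scaling, 3 of 8 were beyond the spot spread at 10 μM, 5 of 8 at 100 μM and all 8 between the doses. The same share over all genes was not counted, so nothing particular to the factors is read from it. Between the doses the sign turned in 1 of 7 scalings for FOXA1 and in 2 of 7 for PROX1.

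**Figure D2:**
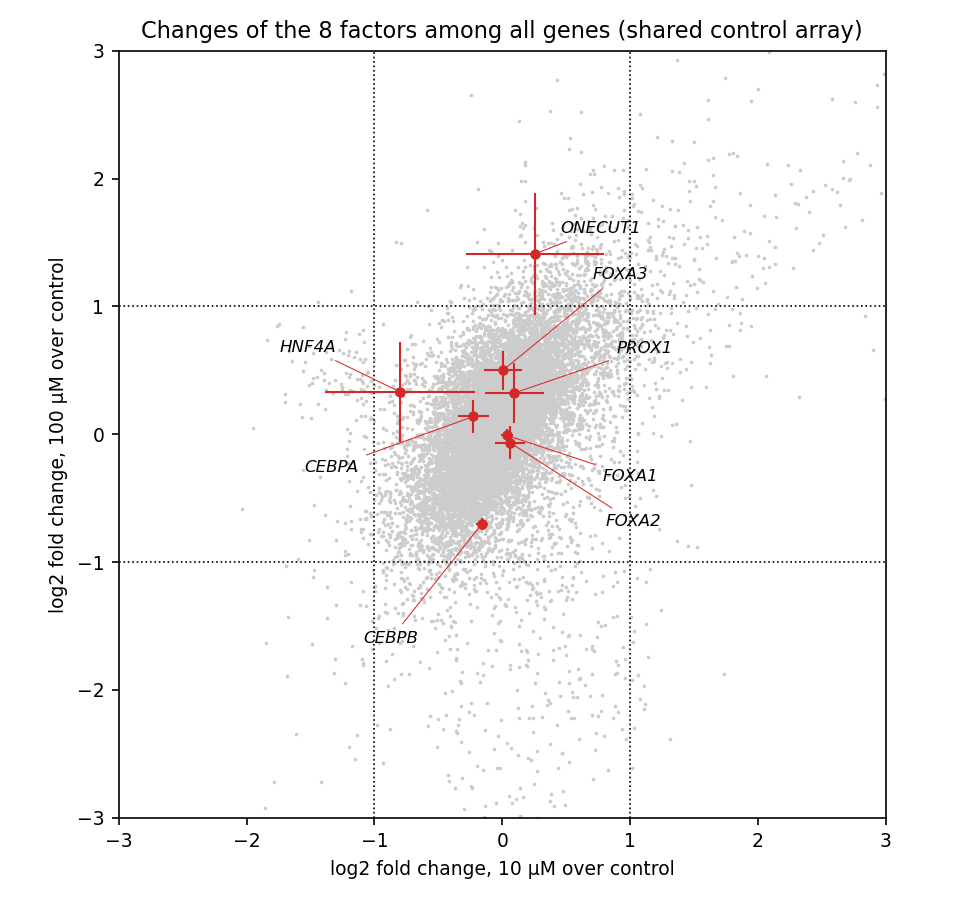
Log2 fold change at 10 μM (x axis) against 100 μM (y axis) over the shared control array, for the 15178 genes well above background on all arrays (grey, 40 of them outside the frame) and the 8 factors (red, with bars of 2 spot errors). Dotted lines mark 2-fold. ONECUT1 lies above the upper line, HNF4A in the left part of the cloud and CEBPB in its lower part, and the other 5 lie nearer its centre.

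Genes with the most similar dose pattern were found by distance between their pairs of log2 fold changes at 10 and 100 μM over the control, over 3 arrays and 15177 other genes well above background. Nearest to ONECUT1 were CHRNE, IFI6 and MOGAT3, at distances of 0.03 to 0.10. Nearest to HNF4A were SPTY2D1, RUFY4 and METRN, all within 0.04. Among the nearest to CEBPB were PARP1 and HNRNPM, both within 0.02. Within a distance of 0.1 there were 7 genes for ONECUT1, 14 for HNF4A and 83 for CEBPB, whereas the flatter factors had 296 (FOXA3) to 650 (FOXA1). The spot errors at 10 and 100 μM were 0.27 and 0.24 for ONECUT1 and 0.29 and 0.20 for HNF4A. These exceed the distances given, so which genes lie nearest to ONECUT1 and HNF4A was not settled.

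Other liver transcription factors were mostly lower at 10 μM. Of 36 on the list, 34 could be measured against the control, and 32 of these 34 were lower at 10 μM, with a median log2 fold change of -0.32 beside -0.04 over all genes. Under the other scalings at least 30 of the 34 were lower. Past 2-fold were 2 of them (5.88%, beside 4.99% of all genes): NR1H4, the bile acid receptor FXR, at -1.21 ± 0.07, and TEF, a circadian PAR leucine zipper factor, at -1.49 ± 0.07. At 100 μM NR1H4 stood at -0.11 and TEF at 0.41 over the control. At 100 μM the median of the list was -0.12, and CREB3L3, the liver-enriched fasting and acute phase activator, was past 2-fold at 1.16 ± 0.08, which fell under 2-fold in some scalings (0.87 at the lowest).

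Of 33 such factors measured between the doses, 29 were higher at 100 μM than at 10 μM, with a median of 0.30, but only 15 of 33 were without scaling. Past 2-fold were 4 of 33 (12.1%, beside 7.63% of all genes): TEF at 1.90, CREB3L3 at 1.43, NR1H4 at 1.10 and NR1I3, the xenobiotic receptor CAR, at least 2.01-fold higher with its 10 μM signal not well above background. Without scaling 2 of 33 were, NR1H4 (down to 0.79) and NR1I3 (down to 0.64) having fallen short, and a second NR1I3 probe gave a bound of 0.59 (log2) under the reported scaling. Of the factors tied closely to HNF4A, NR5A2, the bile acid regulator LRH-1, had log2 fold changes of -0.62 and -0.44 at 10 and 100 μM over the control, and NR0B2, the corepressor SHP, had 0.33 and 0.63. A dimmer second probe of NR5A2 gave -0.35 and 0.20, so the gene was lower at 10 μM by either probe and the probes disagreed at 100 μM. Of 20 partners and inhibitors of the factors, DDIT3 alone was past 2-fold, at 100 μM.

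Target genes of the factors, which encode plasma proteins, bile acid enzymes and transporters, were read on 48 of 49 listed names. By its brightest probe, 36 of these were well above background and 12 were not on any array, CYP7A1 and CYP3A4 among them. At 10 μM the median log2 fold change of the 36 was -0.03, and 1 was past 2-fold: SLC10A1, the bile acid uptake transporter NTCP, at -1.76 ± 0.10. At 100 μM the median was 0.42 (0.425) beside 0.10 over all genes, and 28 of 36 were higher, 23 of 36 at the fewest under another scaling. Past 2-fold there were 5 of 36 (13.9%, beside 10.5% of all genes): FGA at 1.88, F10 at 1.25, CYP8B1 at 1.17, VTN at 1.13 and TTR at 1.11, which encode a fibrinogen chain, a clotting factor, a bile acid hydroxylase, vitronectin and transthyretin. FGA passed under all 7 scalings, and the other 4 fell under 2-fold in at least 1.

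Between the doses 36 of 36 targets were higher at 100 μM, with 3 of 36 past 2-fold (8.33%, beside 7.63% of all genes): SLC10A1 at 2.61, FGA at 1.25 and CYP8B1 at 1.02. Without scaling 22 of 36 were higher and SLC10A1 alone was past 2-fold, and over the 7 scalings FGA reached down to 0.94 and CYP8B1 to 0.71. SLC10A1 was lowest at 10 μM and highest at 100 μM, with scaled signals of 343 in the control, 101 at 10 μM and 618 at 100 μM. Several other targets had this order too under the reported scaling, FGG and HP among them, while others such as ALB did not. For HP the 100 μM value over the control ranged from -0.05 to 0.30 over the 7 scalings, so its sign was not settled. HNF4A had this order as well, though its control and 100 μM did not differ beyond the spot spread. A link between HNF4A and these targets was not tested. ALB, the albumin gene, was lower at both doses (-0.74 and -0.52), and AFP, which encodes alpha-fetoprotein, was nearly level (-0.12 and -0.08).

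**Figure D3:**
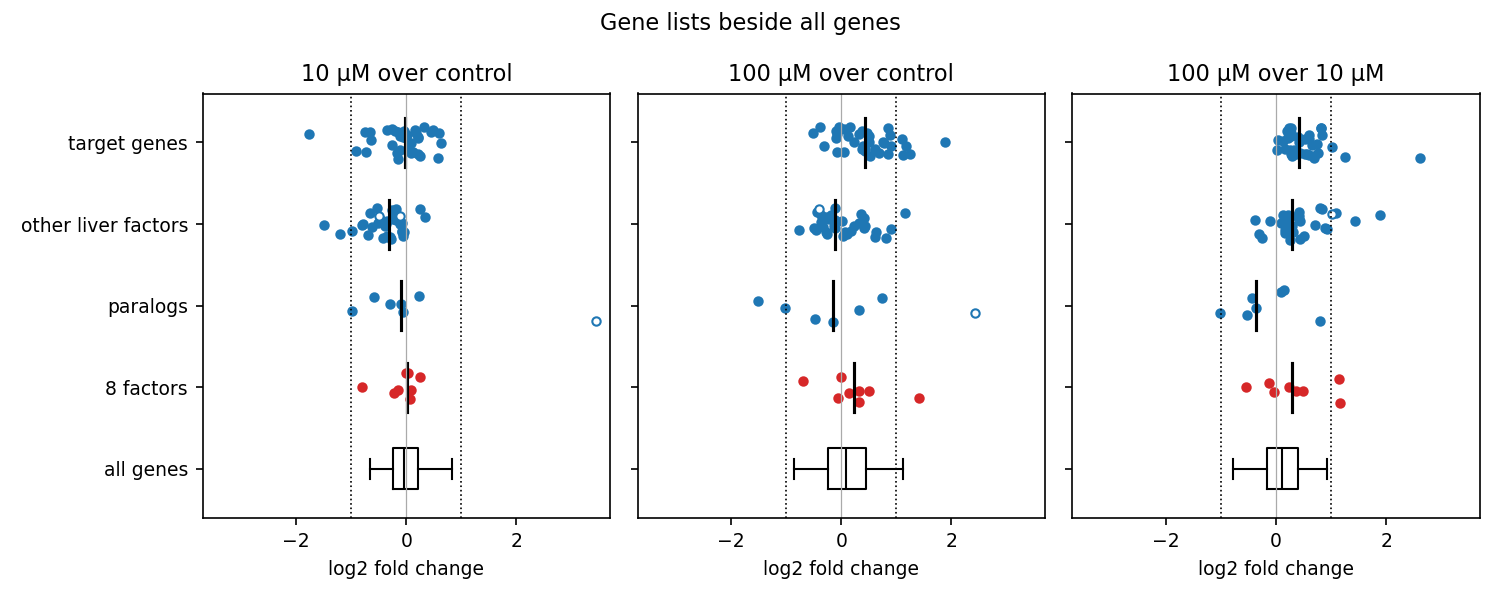
Log2 fold change (x axis) of the 8 factors, their paralogs, other liver factors and target genes, beside all genes (box: quartiles and median, whiskers: 5th and 95th percentiles), in the 3 comparisons. Short vertical bars are medians, open circles are bounds from a signal not well above background on 1 array, and dotted lines mark 2-fold. Other liver factors lie mostly left of zero at 10 μM, and the targets mostly right of it at 100 μM.

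On a list of acute phase genes and other genes tied to C/EBP beta, such as IL6 and SOCS3, 8 of 14 were well above background by their brightest probe. HAMP, the iron hormone hepcidin, was lower by 2-fold or more at both doses (log2 fold changes -1.85 and -1.63), FGA was higher at 100 μM as given above, and the rest, such as HP at -0.36 and 0.24 and ORM1 at 0.22 and 0.43, did not pass 2-fold. SAA1 and IL6 were not well above background on any array. Of the 8 measured, 7 had a higher value at 100 μM than in the control, and 5 did without scaling.

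The promoters of the factors were read from RefSeq (GRCh38.p14), 250 bases upstream of each listed start. Windows were listed for 6 of the 8 genes, 8 windows in all, and not for FOXA2 and PROX1. Each was searched on both strands for a FOX core (TGTTTAC or TATTTAC, in 5.27% of all 35116 windows), a C/EBP core (TTGCGCAA or TTGCAAT, 1.82%) and an HNF4 core (CAAAGTCCA or CAAAGGTCA, 0.664%), none of which contains another. None of the 8 windows held a match to these 3. The downstream of the 2 HNF4A windows and the ONECUT1 window are shown, in lower case throughout, because these genes were the pair past 2-fold between the doses.
HNF4A, chr20:44400989-44401238, plus strand: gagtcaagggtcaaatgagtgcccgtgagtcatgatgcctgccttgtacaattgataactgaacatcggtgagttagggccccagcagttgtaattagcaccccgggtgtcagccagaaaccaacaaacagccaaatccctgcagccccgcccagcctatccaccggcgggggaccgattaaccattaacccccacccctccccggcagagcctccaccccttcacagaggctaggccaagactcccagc
ONECUT1, chr15:52790337-52790586, minus strand: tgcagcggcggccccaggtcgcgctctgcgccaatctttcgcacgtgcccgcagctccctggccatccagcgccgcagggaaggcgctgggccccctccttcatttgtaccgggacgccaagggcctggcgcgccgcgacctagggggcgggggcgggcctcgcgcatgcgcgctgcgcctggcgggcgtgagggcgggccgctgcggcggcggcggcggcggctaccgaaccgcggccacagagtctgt
The absence of a match says only that these letters are not in the window. The G and C content was 58.0% in this HNF4A window and 58.4% in the other, beside a median of 58.0% over all windows, and was 67.2% for FOXA1, 75.2% for FOXA3, 75.6% and 77.6% for the CEBPB windows, 76.8% for ONECUT1 and 81.2% for CEBPA.

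**Figure D4:**
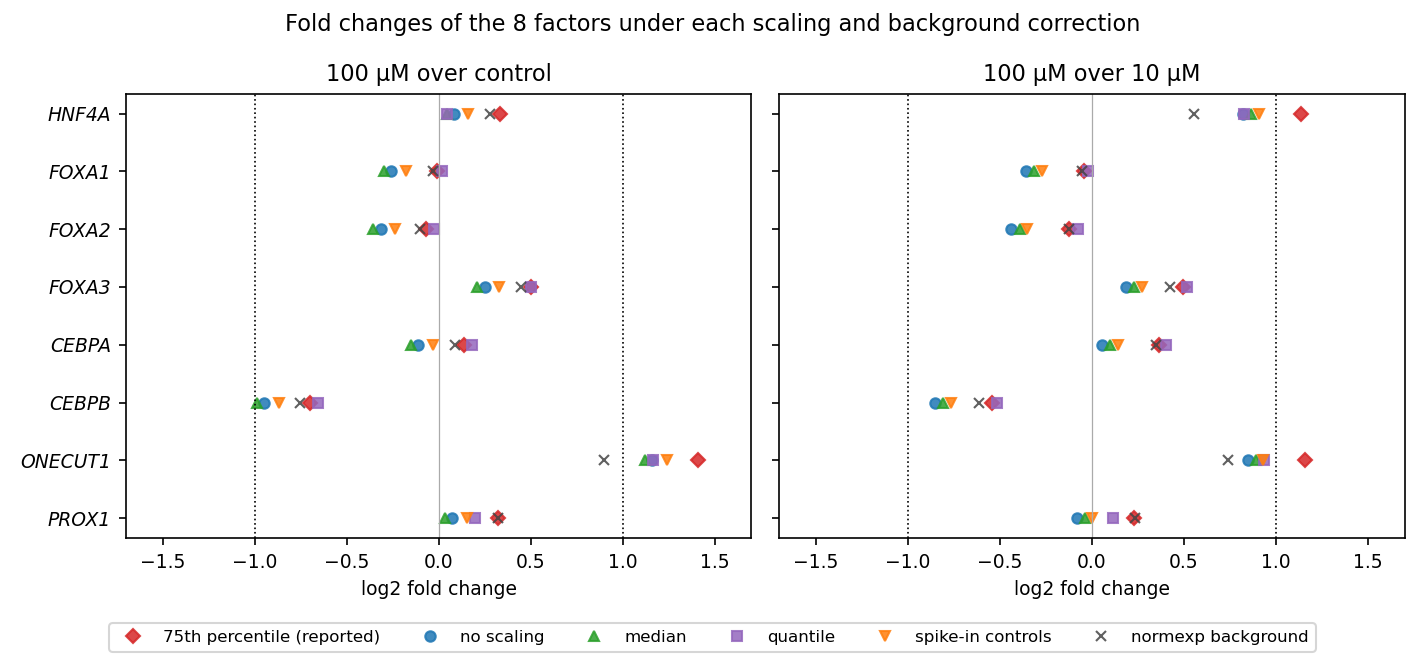
Log2 fold change (x axis) of each factor at 100 μM over the control and over 10 μM. Values are under the reported scaling, 4 other scalings and normexp background correction. The normexp offset of 50 by itself shrinks the folds of dim probes. Dotted lines mark 2-fold. ONECUT1 stays past 2-fold over the control except with normexp, HNF4A and ONECUT1 pass 2-fold between the doses under the reported scaling alone among those drawn, and CEBPB stays below zero throughout.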

How the data were processed

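Total RNA of 3 HepG2 cultures was labelled with Cy3 and hybridised to 1-colour Agilent arrays, and the authors extracted spots with Agilent Feature Extraction 10.7.3.1. The deposited intensity is the processed signal, background subtracted and detrended within each array but not scaled between arrays. The series table holds the same intensities. Outlier spots were left out, spots of a probe averaged on the log2 scale, arrays scaled by the 75th percentile over probes, and a gene represented by its brightest probe. A probe not well above background on 1 of 2 arrays gave a bound, and on both no fold. Spot errors came from the probe's own spots or, for single spots, from the median SD of the 50 repeated probes nearest in signal. A call was a fold of at least 2, with no test. All 8 factor symbols matched current RefSeq symbols by accession. Spot averaging, scaling and the 2-fold calls were tested on simulated data for 10 μM over the control. Changes were planted there only in genes brighter than HNF4A and ONECUT1. Spot errors, normexp, the nearest genes and the motif search were not tested in this way. Named genes were the 8 factors, their paralogs, ALB, AFP, NR0B2, NR5A2, listed genes past 2-fold (up to 6 per direction and list) and the 3 nearest genes of the 3 factors with the widest range. Some items of this rule and 1 promoter motif are not reported here. The factors and lists were chosen with earlier results of these data known. Alternatives were other scalings, background correction, filters, probe rules and folds. Python 3.11.15, pandas 2.3.3, numpy 2.4.6 and, for normexp with an offset of 50, limma 3.58.1 in R 4.3.3 were used. The number of arrays limits the precision.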

Additional observations from a re-analysis of the deposited data

Results flagged for a closer look

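Taking the 8 factors and those listed genes that were past 2-fold in a comparison, the doses moved the signal of 5 in opposite ways against the shared control, each beyond 2 spot errors. Listed genes with smaller opposite changes, such as HP, are not counted in the 5. With 1 array per dose the difference was not tested. Among the factors this was CEBPA, 0.37 (log2) higher at 100 μM than at 10 μM, with -0.23 at 10 μM and 0.14 at 100 μM over the control, and the latter turned negative in 3 of 7 scalings. Among its relatives in the liver network, TEF differed between the doses by 1.90 (-1.49 and 0.41) and CREB3L3 by 1.43 (-0.27 and 1.16). Among target genes, SLC10A1 differed by 2.61 (-1.76 and 0.85), the widest of the 5. PTPRC, a leukocyte marker, differed by 1.44 (-1.03 and 0.41) on 1 probe, while its other 4 of 5 probes were not well above background on any array.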

How the results depend on the processing

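No paired analysis was possible because a single array stands for every dose, and for the same reason no replicate could be left out. Of 264 values of single factors under the alternatives, 189 stayed within their spot error, 75 moved further and 0 values past 2-fold changed sign. The count of factors past 2-fold at 100 μM over 10 μM went from 2 to 0 without scaling, with median, quantile or spike-in scaling, with normexp, and at a 3-fold threshold. At 100 μM over the control it went from 1 to 0 with normexp and at 3-fold, and to 2 at 1.5-fold. At 10 μM it went from 0 to 1 at 1.5-fold. HNF4A and ONECUT1, which leave the count with normexp, are dim, and its offset of 50 by itself shrinks their folds. For other liver factors the median between the doses (0.30) was -0.016 without scaling, 0.028 with median scaling, 0.069 with spike-ins and 0.37 with the percentile over all spots. At 100 μM over the control it moved from -0.12 to -0.37, -0.405 and -0.29 under the first 3 of these and to -0.043 with the mean of a gene's probes. For target genes the median between the doses (0.42) became 0.11, 0.15, 0.20 and 0.495 in these 4 settings, and 0.33 by normexp. At 100 μM over the control (0.425) it was 0.175, 0.14 and 0.25 without scaling, with median scaling and with spike-ins, and at 10 μM (-0.03) it was 0.034 without scaling and 0.044 without a filter on dim probes. The cause of these shifts beyond the change of scale was not tested. The series table gave the values reported. Dim probes limit HNF4A and ONECUT1 most, and 1 array per condition limits every statement to these 3 cultures.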

Other observations

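Some markers of other cell types were past 2-fold in this cell line, beside the hepatocyte genes described above. LYVE1, an endothelial hyaluronan receptor, had log2 fold changes of 1.74 and 2.79 at 10 and 100 μM over the control, with scaled signals of 50.8, 170 and 351 in the order of dose. CD14, a lipopolysaccharide coreceptor, had 1.12 and 2.08, and CD68, a lysosomal protein of macrophages, had 0.40 and 1.49. ACTA2, smooth muscle actin, had 2.14 and 1.87, and CD24, an adhesion protein of progenitors, had 1.28 and 1.39 from a dim control signal of 26.9. PDGFRB was at least 3.58-fold lower at 100 μM, and STAB2 at least 2.41-fold higher there, each with 1 signal not well above background. The marker lists as a whole went in both directions. Of 6 mesenchymal markers with a fold, 4 were lower at each dose, with list medians of -0.36 and -0.51. CDH2, 1 of these, had -0.92 and -0.47, and the endothelial marker PECAM1 had -0.73 and -0.48. Under the reported scaling, 4 of 5 endothelial, 4 of 5 blood cell and 6 of 7 biliary or progenitor markers were higher at 100 μM. The part of these markers in the values of the hepatocyte factors was not tested.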
